A study of Mus musculus with 11 samples.

Results

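Peptide hormones are made as inactive precursors, and 7 mouse genes that turn them into hormones or line the granule that stores them were followed here. They were chosen by name and role, though with earlier results of these data known. The genes are Pcsk1, Pcsk2, Cpe, Pam, Qpct, Ptprn and Ptprn2, which is 7 of the 38283 genes in the deposited count table. On GRCm38, Pcsk1 lies at chr13:75089826-75134861, Pcsk2 at chr2:143546156-143816285, Cpe at chr8:64592542-64693054, Pam at chr1:97795114-98095646, Qpct at chr17:79051906-79090378, Ptprn at chr1:75247027-75264502 and Ptprn2 at chr12:116485720-117276849, all protein-coding. All 7 were found once by symbol, and all 7 passed the filter on low counts that kept 14332 genes for testing.

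The cells came from the duodenal epithelium of 2 reporter strains of mice, digested to single cells and separated by fluorescence into reporter-positive cells and reporter-negative cells. In the strain labelled Neurod1-cre-eYFP there were 3 positive libraries (NeuroD1_positive_6360, NeuroD1_positive_6361 and NeuroD1_positive_6362) and 3 negative libraries (NeuroD1_negative_6360, NeuroD1_negative_6361 and NeuroD1_negative_6362). In the strain labelled GluVenus, called Glu in its library names, there were 3 positive libraries (Glu_positive_5254, Glu_positive_5160 and Glu_positive_4665) and 2 negative libraries (Glu_negative_5254 and Glu_negative_4665). Values below follow that order within a group. The mice ate standard chow, and their age and sex were not in the labels. Cre made from the Neurod1 gene switches its reporter on for good, so cells that no longer use Neurod1 can still be positive. The GluVenus transgene reports use of the proglucagon gene and so marks only some endocrine cell types. The negative cells are a mixture of the other cells of the digest.

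Prohormone convertases cut precursors at pairs of basic residues inside the secretory granule, carboxypeptidase E then removes the exposed basic residues, and some peptides are capped by amidation at the C-terminus or by cyclisation at the N-terminus. PC1/3, the product of Pcsk1, and PC2, the product of Pcsk2, cut at overlapping but different sites, so which of them a cell makes helps set which peptide leaves it. In proglucagon, PC1/3 is known for releasing GLP-1 in the gut and PC2 for releasing glucagon in pancreatic alpha cells.

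The 250 bases before the transcription start in RefSeq (GRCm38.p6) are shown for both convertases, since Pcsk2 departed from the pattern that Pcsk1 shared with the other genes. Capitals mark the letters TGACGTCA, the sequence that CREB-family factors are known to bind, in Pcsk1 and a CANNTG E-box in Pcsk2. The Pcsk1 stretch is chr13:75089607-75089825 on the plus strand, cut to 219 bases so that it ends before the earliest annotated start, and the Pcsk2 stretch is chr2:143545883-143546132 on the plus strand.
Pcsk1: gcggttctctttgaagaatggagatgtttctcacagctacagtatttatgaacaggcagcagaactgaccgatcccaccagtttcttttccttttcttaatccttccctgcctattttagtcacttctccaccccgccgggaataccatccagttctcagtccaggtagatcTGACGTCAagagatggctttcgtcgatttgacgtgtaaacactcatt
Pcsk2: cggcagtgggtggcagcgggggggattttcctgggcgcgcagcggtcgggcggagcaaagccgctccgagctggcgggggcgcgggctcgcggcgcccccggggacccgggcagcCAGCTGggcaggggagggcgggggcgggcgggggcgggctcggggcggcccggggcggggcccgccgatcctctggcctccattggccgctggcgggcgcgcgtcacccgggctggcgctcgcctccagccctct

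Over the 250 bases, G and C made up 46.8% of Pcsk1 and 82.4% of Pcsk2. The table held 7 entries for 5 of the genes, with 2 entries each for Ptprn and Pam. Both Ptprn entries lie inside the annotated gene, after its earliest start. The 2 Pam entries overlap for most of their length, so the 7 entries are not 7 separate promoters. On both strands, TGACGTCA was found in 1 of the 7, in Pcsk1 with its first base 78 bases before the start, and in 1.55% of the 32851 promoters of the same length. CANNTG was found in 4 of the 7 (Ptprn, Pam, Pcsk2 and Ptprn2) and in 66.2% of all promoters. CAGATG, the form of CANNTG most often given for NeuroD1, was in 0 of the 7 and in 14.4% of all. The GC box GGGCGG was in 5 of the 7 (Ptprn, both Pam entries, Pcsk2 and Ptprn2) and in 32.7% of all. Pcsk2 had 7 matches, some of them overlapping. The Ptprn entry with GGGCGG was the one whose bases after the start were not found in an annotated transcript. TATAAA was in 0 of the 7 and in 12.4% of all. These are matches of letters only.

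Libraries held 2279595 to 5722381 counts. Endocrine identity of the positive gates was checked with 5 markers (Chga, Chgb, Neurod1, Pax6, Isl1), and 5 of 5 rose in both positive populations. Their summed level was 37100 to 55940 CPM in NeuroD1 positive against 1814 to 2168 CPM in NeuroD1 negative libraries, and 6940 to 23130 CPM in Glu positive against 772 to 915 CPM in Glu negative libraries. Chgb made up most of these sums, averaging 43903 CPM in NeuroD1 positive and 12448 CPM in Glu positive libraries. Chga averaged 132 CPM in Glu positive and 130 CPM in NeuroD1 negative libraries. Neurod1 also drives the Cre of the NeuroD1 gate, so its rise there is not independent of the sort. CPM are counts per 1000000 counts of the tested genes, scaled between libraries by the trimmed mean of M values (TMM). Of 14332 genes, 6.57% rose and 7.61% fell in NeuroD1 positive over negative cells, and 4.22% rose and 2.41% fell in Glu positive over negative cells, with the quasi-likelihood test of edgeR and an adjusted p below 0.05. The mitochondrial ribosomal RNA genes mt-Rnr1 and mt-Rnr2 stood at 0% of counts in all 5 Glu libraries and in NeuroD1_negative_6360, and took 27.5% to 33.9% in the other 5. Under scaling by library totals the log2 fold change of the median gene shifted to -0.28 instead of 0.02 in the NeuroD1 comparison, to -0.19 instead of 0.12 in the Glu comparison and to -0.51 instead of -0.14 between the positive populations. Calls that were higher then made up 31.5% instead of 46.3%, 42.4% instead of 63.6% and 19.3% instead of 39.1% of all calls in those 3 comparisons. By upper quartile scaling the share in the Glu comparison was 49.0%. Between the negative populations library totals gave 54.8% instead of 74.3%, and for the interaction 56.0% instead of 81.2%.

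Of the 7 genes, 6 rose in NeuroD1 positive over NeuroD1 negative cells and the same 6 rose in Glu positive over Glu negative cells, with Pcsk2 the exception in both. Fold changes of expression are given with their standard error (SE) after the ± sign. The 6 rose by 2.92 to 4.28 on the log2 scale in the NeuroD1 strain and by 2.81 to 4.09 in the Glu strain. Over all 7 the median log2 fold change was 3.21 in the NeuroD1 and 3.53 in the Glu comparison, beside 0.02 and 0.12 over all tested genes. In the same 6 genes the lowest positive library lay above the highest negative library of its strain, which held for 18.3% of all tested genes in the NeuroD1 and 15.8% in the Glu comparison. The gain with sorting differed between strains for 0 of 7 genes in the interaction term of edgeR, against 0.112% of all genes, with 0 of 7 at an unadjusted p under 0.05 and 0 of 7 in DESeq2. Over all 14332 tested genes, 1558 were at an unadjusted p under 0.05 in that term of edgeR, and DESeq2 called 175. In sorted bulk samples, a lower share of cells that express a gene and less of its RNA in each cell cannot be told apart. The plot of the 7 genes by library shows these levels.

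**Figure D1:**
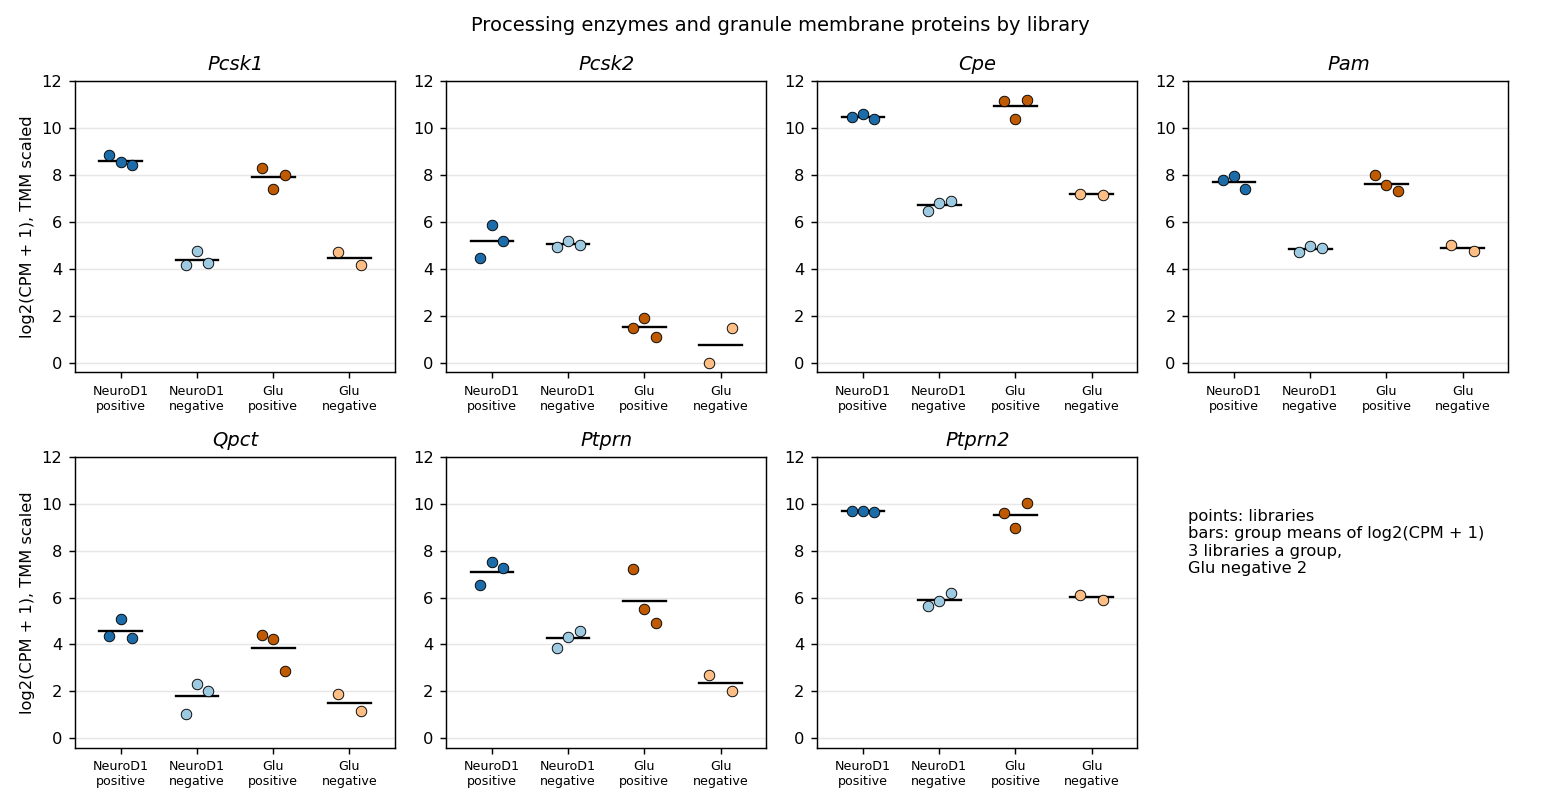
Each panel gives 1 gene as log2(CPM + 1) after TMM scaling; points are libraries and bars are group means of those values (3 libraries a group, 2 for Glu negative). In 6 panels each positive group stands above the negative group of its own strain, while Pcsk2 separates the 2 strains, at 21.3 to 57.2 CPM in NeuroD1 and 0 to 2.76 CPM in Glu libraries.

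Pcsk1, the convertase PC1/3, was measured at 455, 372 and 344 CPM in NeuroD1 positive libraries, against 16.7, 26.1 and 17.9 CPM in NeuroD1 negative libraries. In the Glu strain it had 316, 168 and 252 CPM in positive and 25.6 and 16.9 CPM in negative libraries. Positive libraries were high in both strains, with no overlap with the negative ones. The log2 fold change was 4.28 ± 0.38 (SE, adjusted p = 7.5e-07) in the NeuroD1 and 3.53 ± 0.43 (adjusted p = 9.0e-05) in the Glu comparison. NeuroD1 positive libraries averaged 390.4 ± 58.1 CPM and Glu positive libraries 245 ± 73.8 CPM (SD, n = 3 each), and the difference of 0.67 ± 0.33 on the log2 scale did not pass (adjusted p = 0.21). Both negative groups were lowest, at 20.2 ± 5.11 CPM in NeuroD1 negative (n = 3) and 21.3 ± 6.15 CPM in Glu negative (n = 2) libraries, and did not differ beyond their spread.

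Pcsk2, the convertase PC2, had 21.3, 57.2 and 35.4 CPM in NeuroD1 positive libraries, against 29.3, 35.1 and 31.4 CPM in NeuroD1 negative libraries. The 2 NeuroD1 groups overlapped, and the log2 fold change of 0.25 ± 0.64 (SE) did not pass (adjusted p = 0.87). Its sign turned to -0.16 without NeuroD1_positive_6361 and to -0.07 with library totals. In Glu positive libraries Pcsk2 had 1.82, 2.76 and 1.14 CPM from 6, 8 and 8 counts, and in Glu negative libraries 0 and 1.82 CPM from 0 and 13 counts. A count of 0 in Glu_negative_5254 allows up to 0.663 CPM (3 counts). The Glu comparison did not pass either (0.86 ± 0.87, adjusted p = 0.59), and the fold change ranged from near 0 to 5.80 on the log2 scale under the alternatives.

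Pcsk2 differed between the strains instead. NeuroD1 positive over Glu positive cells gave a log2 fold change of 4.35 ± 0.76 for Pcsk2 (adjusted p = 0.0017), and it was the 1 gene of 7 that passed, where 3.18% of all genes were higher. NeuroD1 negative over Glu negative cells gave 4.96 ± 0.93 (adjusted p = 0.015), again 1 of 7, where 0.363% of all genes were higher. All NeuroD1 libraries lay above all Glu libraries. Non-overlap in the higher direction was found for 2 of the 7 genes in each comparison, Pcsk2 with Pcsk1 between the positive groups and Pcsk2 with Ptprn between the negative groups, against 11.4% and 15.3% of all genes. Without Glu_negative_5254, the library with 0 counts, the difference between the negative groups was 4.09 and no longer passed (adjusted p = 0.18). Strain, reporter and the set of libraries cannot be told apart in these comparisons. NeuroD1_negative_6360 shares the absence of mt-Rnr1 and mt-Rnr2 with the Glu libraries. It had 29.3 CPM of Pcsk2, close to the other NeuroD1 negative libraries. Any link between that absence and the Pcsk2 level was not tested. Exons of Pcsk2 overlap Pcsk2os1 and Pcsk2os2 on the opposite strand, and the use of strand in counting is not given in the sources used here, so their reads cannot be told apart. Pcsk2os1 summed to 18 counts in NeuroD1 positive, 11 in NeuroD1 negative, 11 in Glu positive and 8 in Glu negative libraries. Pcsk2os2 summed to 44, 4, 11 and 1 counts in the same groups, where Pcsk2 itself summed to 375, 308, 22 and 13.

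The negative cells thus kept a different share of each convertase. Mean Pcsk1 CPM in NeuroD1 negative libraries was 5.19% of that in NeuroD1 positive libraries, and for Pcsk2 it was 84.1%. For Cpe, Pam, Qpct, Ptprn and Ptprn2 the share was 7.27% to 13.2%, and for the 5 endocrine markers it was 4.19% to 13.1%. In the Glu strain the share was 8.68% for Pcsk1, 47.8% for Pcsk2 at its few counts, 5.90% to 14.3% for the other 5 genes and 4.80% to 16.7% for the markers.

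The ratio of Pcsk2 to Pcsk1 within a library does not depend on scaling. Per kilobase of exon it was 0.0334, 0.109 and 0.0731 in NeuroD1 positive libraries, against 1.24, 0.951 and 1.24 in NeuroD1 negative libraries. In Glu positive libraries it was 0.00443, 0.0123 and 0.00340, and in Glu negative libraries 0.00304 and 0.0787. The value of 0.00304, in Glu_negative_5254, came from 0 counts of Pcsk2 and 116 of Pcsk1. It was set by the 0.5 count added to each gene and is not a measured ratio. Thus Pcsk2 stood far below Pcsk1 in every positive library and from about level to above it in NeuroD1 negative libraries, where the longest transcript as the length gave 1.86, 1.43 and 1.86. The mean log2 ratio of NeuroD1 positive minus NeuroD1 negative libraries was -4.14, and that of NeuroD1 positive minus Glu positive libraries 3.50, with no overlap in either. Each had an exact two-sided permutation p of 0.1, the smallest that 3 against 3 can give, and an adjusted p of 0.25 over 15 tests of 5 ratios. The Glu positive and Glu negative ratios overlapped (difference -1.44, exact permutation p = 0.7), and without Glu_negative_4665 that difference was 0.91. The 0.91 rests on the value of Glu_negative_5254 that the added count set.

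**Figure D2:**
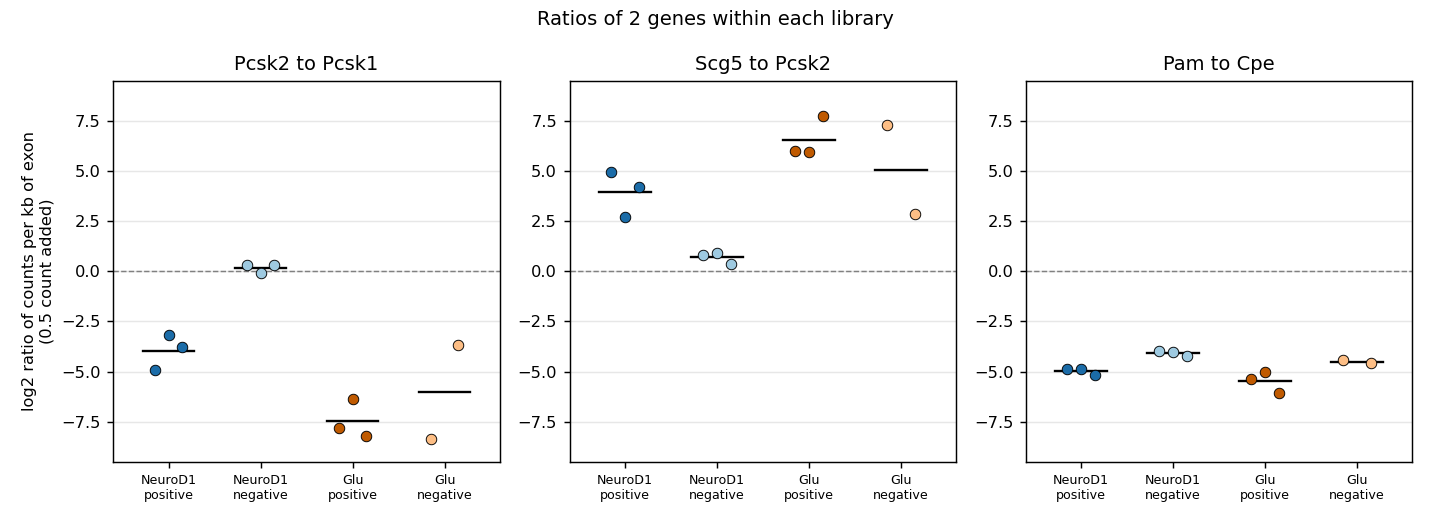
Log2 ratios of counts per kilobase of exon within each library, with 0.5 count added to each gene; points are libraries and bars are group means. Pcsk2 to Pcsk1 is near 0 in NeuroD1 negative libraries and between -3.19 and -8.36 in all others, and Scg5 to Pcsk2 is lowest in NeuroD1 negative libraries.

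Each convertase has a known binding protein, measured alongside it. Scg5 encodes 7B2, which PC2 needs to mature, and Pcsk1n encodes proSAAS, known as an inhibitor of PC1/3. Scg5 had 134, 73.6 and 130.1 CPM in NeuroD1 positive libraries, against 10.05, 13.1 and 7.86 CPM in NeuroD1 negative libraries. It had 24.9, 36.5 and 51.1 CPM in Glu positive and 3.32 and 2.66 CPM in Glu negative libraries. Thus Scg5 followed the sorting gate in both strains, rising by 3.45 ± 0.46 (adjusted p = 5.0e-05) in the NeuroD1 and 3.65 ± 0.56 (adjusted p = 0.00057) in the Glu comparison on the log2 scale. Pcsk1n rose by 3.10 ± 0.60 (adjusted p = 0.0016) and 2.67 ± 0.70 (adjusted p = 0.028). Its Glu call was lost without Glu_negative_5254, Glu_positive_4665 or Glu_negative_4665 (adjusted p of 0.0903 to 0.229). Pcsk1n stood at 12.4, 9.65 and 48.1 CPM in Glu positive libraries, highest in Glu_positive_4665.

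Between the positive populations both binding proteins were higher in NeuroD1 cells (median log2 fold change 1.80, beside -0.14 over all tested genes), by 1.58 ± 0.42 for Scg5 (adjusted p = 0.025) and 2.03 ± 0.56 for Pcsk1n (adjusted p = 0.032) on the log2 scale. The Scg5 call was lost without NeuroD1_positive_6360 or NeuroD1_positive_6362 or Glu_positive_5254 or Glu_positive_5160 (adjusted p of 0.0518 to 0.110). The Pcsk1n call was lost without NeuroD1_positive_6361 or NeuroD1_positive_6362, Glu_positive_5254 or Glu_positive_5160, or Glu_negative_5254 or Glu_negative_4665 (adjusted p of 0.0539 to 0.177). Per kilobase, Scg5 exceeded Pcsk2 by 31.5, 6.48 and 18.5 times in NeuroD1 positive libraries, against 1.74, 1.90 and 1.29 times in NeuroD1 negative libraries. In Glu positive libraries the ratio was 64.0, 63.2 and 213. The mean log2 ratio was 3.27 higher in NeuroD1 positive than NeuroD1 negative libraries, with no overlap (exact permutation p = 0.1, adjusted p = 0.25).

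Cpe, carboxypeptidase E, was the most abundant of the 7, with 1412, 1550.1 and 1337 CPM in NeuroD1 positive libraries, against 87.8, 109.95 and 119 CPM in NeuroD1 negative libraries. Among Glu cells it had 2301, 1339 and 2336 CPM in positive and 147 and 139 CPM in negative libraries. The positive groups were high and overlapped each other, and both stood clear of the negative groups. It rose by 3.77 ± 0.33 (adjusted p = 7.5e-07) and 3.80 ± 0.39 (adjusted p = 3.6e-05) on the log2 scale. Ranked per kilobase among the tested genes, Cpe was at the 99.7th to 99.9th percentile in positive libraries and still at the 94.1st to 96.9th percentile in negative libraries.

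Pam encodes the enzyme that makes the C-terminal amide of peptides such as CCK, secretin and PYY. It had 219, 245 and 169.5 CPM in NeuroD1 positive libraries, against 25.2, 30.1 and 28.4 CPM in NeuroD1 negative libraries. Glu cells had 253, 191 and 159.5 CPM of Pam in positive and 31.2 and 26.3 CPM in negative libraries. Pam averaged 211 ± 38.1 CPM in NeuroD1 positive and 201 ± 47.6 CPM in Glu positive libraries (SD, n = 3 each), and these groups overlapped. It rose by 2.92 ± 0.34 (adjusted p = 1.5e-05) and 2.81 ± 0.39 (adjusted p = 0.00023) on the log2 scale, the difference between the positive groups being 0.07 ± 0.31 (adjusted p = 0.92) and turning sign among the alternatives (-0.25 to 0.27). Its exons overlap B230216N24Rik on the same strand, which summed to 87 counts in NeuroD1 positive, 15 in NeuroD1 negative, 61 in Glu positive and 26 in Glu negative libraries, where Pam summed to 2037, 268, 2508 and 329.

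The ratio of Pam to Cpe was lower in positive than in negative libraries of each strain. The log2 difference was -0.87 in NeuroD1 (exact permutation p = 0.1) and -0.97 in Glu cells (exact permutation p = 0.2), with no overlap in either. The adjusted p was 0.25 and 0.33. Between the positive populations the ratio overlapped (0.51, exact permutation p = 0.2).

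Qpct, glutaminyl cyclase, closes an N-terminal glutamine into the pyroglutamate found on gastrin and neurotensin. It was the rarest of the 6 genes that rose, with 19.8, 33.2 and 18.6 CPM in NeuroD1 positive libraries, against 1.06, 4.02 and 3.06 CPM in NeuroD1 negative libraries. In the Glu strain it had 20.3, 17.6 and 6.41 CPM in positive and 2.65 and 1.26 CPM in negative libraries, where the negative values came from 12 and 9 counts. Its log2 fold change was 3.21 ± 0.72 (adjusted p = 0.0053) in the NeuroD1 and 2.91 ± 0.82 (adjusted p = 0.040) in the Glu comparison. The Glu call was near the threshold and was lost under 12 of 20 alternatives, among them 8 that left out a library: NeuroD1_positive_6360, NeuroD1_positive_6361 or NeuroD1_positive_6362, NeuroD1_negative_6362, Glu_positive_5254 or Glu_positive_5160, or Glu_negative_5254 or Glu_negative_4665 (adjusted p of 0.0530 to 0.325). Its fold change stayed between 2.43 and 3.48 on the log2 scale under all 20. The ratio of Qpct to Pam overlapped between groups in all 3 comparisons made, with differences of 0.31, 0.01 and 0.73 on the log2 scale for the NeuroD1, the Glu and the positive-population comparison (exact permutation p of 0.9, 1 and 0.2).

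Ptprn2 and Ptprn encode phogrin and IA-2, related transmembrane proteins of the dense-core granule that belong to the receptor tyrosine phosphatase family and lack its usual activity. Ptprn2 had 818, 813 and 811 CPM in NeuroD1 positive libraries, against 49.5, 56.7 and 71.2 CPM in NeuroD1 negative libraries. Among Glu cells it had 778, 495 and 1047 CPM in positive and 68.8 and 58.3 CPM in negative libraries. The NeuroD1 positive libraries were nearly equal and lay within the range of the Glu positive ones. Ptprn2 rose by 3.78 ± 0.35 (adjusted p = 1.0e-06) and 3.61 ± 0.40 (adjusted p = 5.2e-05) on the log2 scale.

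Ptprn had 90.7, 179 and 152 CPM in NeuroD1 positive libraries, against 13.4, 19.1 and 23.1 CPM in NeuroD1 negative libraries. In the Glu strain it had 146, 44.4 and 28.9 CPM in positive and 5.53 and 3.08 CPM in negative libraries. Glu_positive_5254 thus held the high value of its group, within the range of the NeuroD1 positive libraries, and the other Glu positive libraries lay below all of those. Ptprn rose by 2.93 ± 0.55 (adjusted p = 0.0012) in the NeuroD1 and by 4.09 ± 0.69 (adjusted p = 0.0016) in the Glu comparison on the log2 scale, and without Glu_negative_4665 the second was 3.69 and no longer passed (adjusted p = 0.054). NeuroD1 positive over Glu positive cells gave 0.95 ± 0.50, which did not pass (adjusted p = 0.25), while without Glu_positive_5254 it was 1.94 and passed (adjusted p = 0.010). NeuroD1 negative libraries averaged 18.5 ± 4.89 CPM (n = 3) and Glu negative libraries 4.305 ± 1.73 CPM (n = 2), a log2 difference of 2.11 ± 0.64 that did not pass (adjusted p = 0.24). That difference passed without Glu_positive_5254 (2.11, adjusted p = 0.032) and with no filter on low counts (2.08, adjusted p = 0.027). The log2 ratio of Ptprn2 to Ptprn was 0.91 higher in NeuroD1 positive than NeuroD1 negative libraries, with no overlap (exact permutation p = 0.1, adjusted p = 0.25). It overlapped in the Glu comparison (-0.22, exact permutation p = 0.8) and between the positive populations (-1.10, exact permutation p = 0.3). Glu_positive_5254 also had the highest summed immune (2226 CPM) and stromal (283 CPM) markers of the Glu positive libraries, in each case below the highest Glu negative library (4172 and 327 CPM). Of these lists, Cd4 (923 CPM), Cd3e (544 CPM), Ptprc (449.6 CPM) and Acta2 (176 CPM), singled out after their values were seen, were the highest of the 11 libraries there. Cd8a, Cd79a, Jchain, Tyrobp and Nkg7 were instead lower in all Glu positive than in both Glu negative libraries. The part of these cells in the Ptprn level was not tested.

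Per kilobase of exon, the order of levels in NeuroD1 positive libraries was Cpe at 549 ± 41.5, Ptprn2 at 94.6 ± 0.42, Pcsk1 at 69.7 ± 10.4, Ptprn at 33.1 ± 10.7, Pam at 17.7 ± 3.21, Qpct at 9.41 ± 3.18 and Pcsk2 at 4.80 ± 2.29 CPM per kilobase (SD, n = 3). Glu positive libraries gave the same order, with Cpe at 764 ± 217, Ptprn2 at 89.9 ± 32.1 and Pcsk2 last at 0.241 ± 0.103 CPM per kilobase, and Ptprn (17.2 ± 14.9) and Pam (16.9 ± 4.003) not apart beyond their spread. In NeuroD1 negative libraries Ptprn (4.36 ± 1.15), Pcsk2 (4.04 ± 0.38) and Pcsk1 (3.61 ± 0.91) lay close together, with overlapping spreads. By the longest transcript they averaged 5.22, 6.76 and 4.02 CPM per kilobase, so Pcsk2 was then highest of these. With the longest transcript as the length, Pam in NeuroD1 positive libraries stood at 51.4 CPM per kilobase and passed above Ptprn at 39.5. By that length Pam in Glu positive libraries stood at 49.0 CPM per kilobase, above Ptprn at 20.5 and about level with Pcsk1 at 48.7. The order of these genes thus depends on the length used.

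Other members of the processing pathway were counted by list. Over all tested genes, 6.57% rose in the NeuroD1 and 4.22% in the Glu comparison. At an unadjusted p under 0.05 in edgeR, 3784 of the 14332 genes differed in either direction in the NeuroD1 and 3348 in the Glu comparison. DESeq2 called 1115 higher and 1399 lower in the NeuroD1 comparison, and 976 higher and 566 lower in the Glu comparison. Counts of the lists at those settings are to be read beside these. Of 7 further proprotein convertases, 6 were tested, and 0 rose in either positive population in edgeR or DESeq2, with 0 in the NeuroD1 and 1 in the Glu comparison at an unadjusted p under 0.05. Pcsk5 alone fell in the NeuroD1 comparison (log2 fold change -2.62 ± 0.52, adjusted p = 0.0021), at 12.1 ± 1.68 CPM in NeuroD1 positive against 74.3 ± 34.5 CPM in NeuroD1 negative libraries (SD, n = 3 each). Pcsk6, named after its values were seen, alone fell in the Glu comparison, with 0, 1.03 and 0.285 CPM in Glu positive against 11.3 and 3.22 CPM in Glu negative libraries (log2 fold change -4.05 ± 1.10, adjusted p = 0.033). Its call was lost without any of Glu_positive_5254 or Glu_positive_4665 or Glu_negative_5254 or Glu_negative_4665 (adjusted p of 0.0657 to 0.304). The list's median log2 fold change was -0.39 in the NeuroD1 and -0.30 in the Glu comparison.

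Of 6 other carboxypeptidases of the Cpe family, 4 were tested. Cpm, a membrane-anchored carboxypeptidase, rose in the NeuroD1 comparison (1.98 ± 0.50, adjusted p = 0.011), a call lost without NeuroD1_negative_6361 or NeuroD1_negative_6362 (adjusted p of 0.0607 to 0.0647). Cpd (1.19 ± 0.33, adjusted p = 0.038), a Golgi enzyme, and Cpn1 (4.40 ± 1.12, adjusted p = 0.025), a plasma carboxypeptidase subunit, rose in the Glu comparison, both named after their values were seen. The Cpn1 call rested on Glu_positive_5160 and Glu_positive_4665, since Glu_positive_5254 had 1.52 CPM against 1.55 and 0.700 CPM in Glu negative libraries, and it was lost without Glu_positive_4665 or either Glu negative library (adjusted p of 0.0643 to 0.245). The Cpd call was lost without any 1 of the 6 NeuroD1 libraries or either Glu negative library (adjusted p of 0.0513 to 0.306). The list's medians were 1.33 in the NeuroD1 and 0.65 in the Glu comparison. At an unadjusted p under 0.05 in edgeR, 3 were higher and 1 lower in the NeuroD1 comparison, and 2 were higher in the Glu comparison.

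Of 5 other enzymes that can cut or trim precursors, 2 rose in the NeuroD1 comparison, the lysosomal protease Ctsl (2.11 ± 0.42, adjusted p = 0.0021) and the endothelin-converting enzyme Ece1 (1.88 ± 0.36, adjusted p = 0.0016), and 0 changed in the Glu comparison in edgeR, at an unadjusted p under 0.05 or in DESeq2. The medians were 1.55 and -0.02. Between the positive populations Cpm (1.78 ± 0.49, adjusted p = 0.031), Ctsl (1.68 ± 0.41, adjusted p = 0.017) and Ece1 (1.28 ± 0.36, adjusted p = 0.033) were higher in NeuroD1 cells, also named after their values were seen. The Ctsl call was lost without NeuroD1_positive_6360 or NeuroD1_positive_6361 (adjusted p of 0.0549 to 0.0956). The Cpm and Ece1 calls were lost without any 1 of the NeuroD1 positive libraries, Glu_positive_5254 or Glu_positive_5160, or either Glu negative library (adjusted p of 0.0531 to 0.120).

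Of the 4 genes for the supply of copper and electrons that Pam needs (Cyb561, Atp7a, Slc31a1, Atox1), 0 passed in either strain in edgeR, at an unadjusted p under 0.05 or in DESeq2, with median log2 fold changes of -0.07 and 0.40. Of 7 genes of dense-core granule formation, 2 rose in the NeuroD1 and 0 in the Glu comparison, with medians of 0.97 and 0.93. At an unadjusted p under 0.05 in edgeR, 4 were higher in the NeuroD1 and 3 in the Glu comparison, and DESeq2 called 3 and 0. Rab2a, a small GTPase of granule maturation, rose by 1.26 ± 0.31 (adjusted p = 0.011), and lost its call without NeuroD1_negative_6360 or NeuroD1_negative_6361 (adjusted p of 0.0508 to 0.0513). Ica1, found on immature granules, rose by 2.01 ± 0.61 (adjusted p = 0.032), and lost its call without NeuroD1_positive_6360 or NeuroD1_positive_6362 or NeuroD1_negative_6360 or NeuroD1_negative_6362 (adjusted p of 0.0592 to 0.152). By comparison, of 10 precursors of amidated gut peptides 8 were tested, and 6 rose in the NeuroD1 and 4 in the Glu comparison (medians 4.50 and 2.85). Of 6 precursors of peptides that are not amidated, 5 and 4 rose (medians 3.65 and 3.41).

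**Figure D3:**
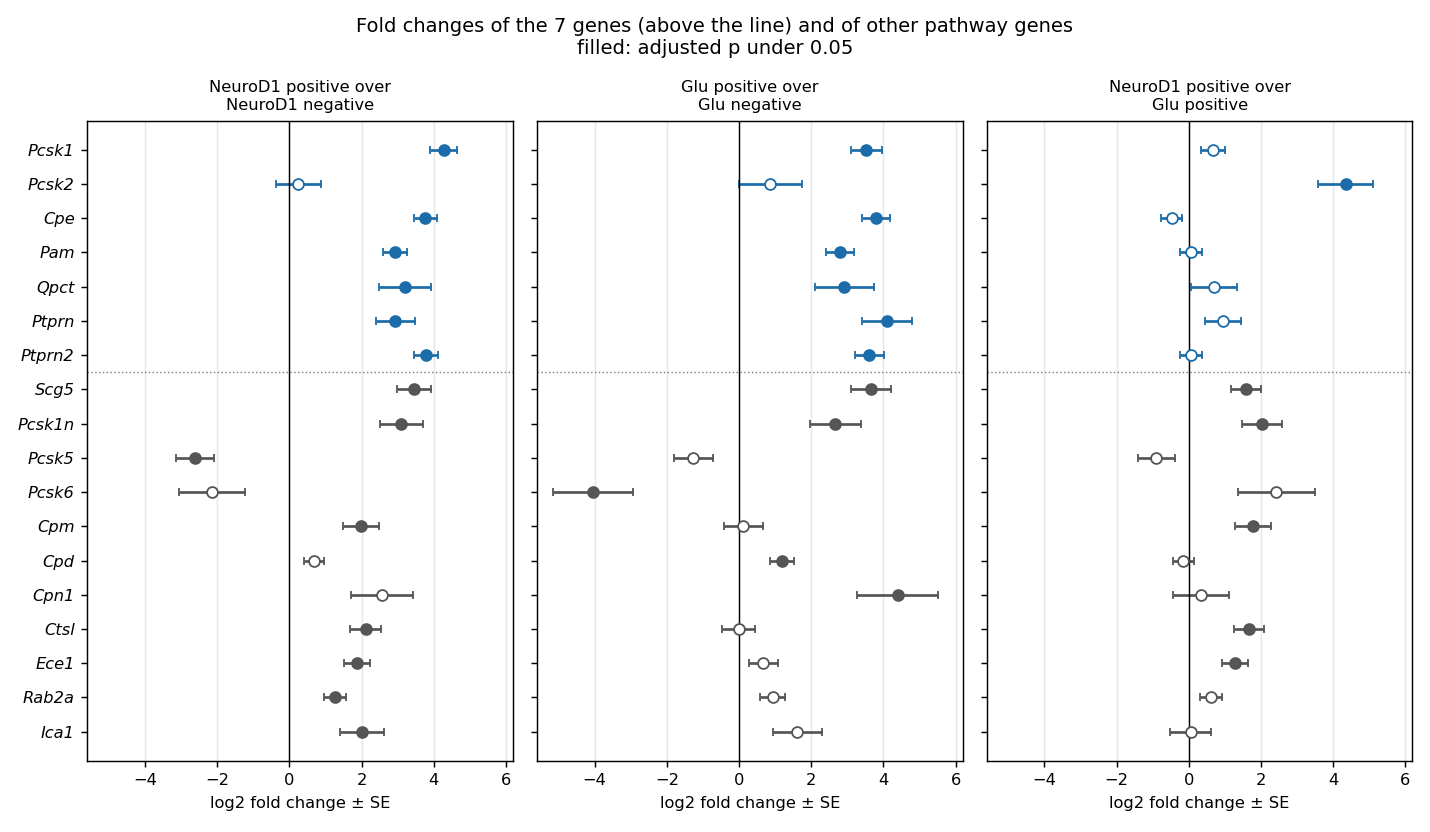
Log2 fold changes with their standard errors for the 7 genes (above the dotted line) and named pathway genes in 3 comparisons; filled points have an adjusted p under 0.05 in edgeR. In the NeuroD1 and Glu comparisons 6 of the 7 genes are filled and lie between 2.81 and 4.28, and between the positive populations Pcsk2 at 4.35 is the filled one of the 7.

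Many markers of other cells moved with the gates, but not all. Of 8 immune markers, 8 fell in the NeuroD1 and 4 in the Glu comparison, with summed levels of 34.5 to 105 CPM in NeuroD1 positive against 897 to 2303 CPM in NeuroD1 negative libraries, and of 360.0 to 2226 CPM in Glu positive against 1866 to 4172 CPM in Glu negative libraries. Goblet markers summed to 345 to 549 CPM in NeuroD1 positive against 2196 to 3131 CPM in NeuroD1 negative libraries, and to 869.8 to 2511 CPM in Glu positive against 3073 to 3996 CPM in Glu negative libraries. Of 6 enterocyte, 5 goblet and 5 Paneth markers, 5, 5 and 5 fell in the NeuroD1 and 4, 1 and 0 in the Glu comparison. In the Glu comparison 1 enterocyte marker rose. Of the Paneth markers there, 3 were lower at an unadjusted p under 0.05 in edgeR and 1 fell in DESeq2. Enterocyte markers summed to 3199 to 3924 CPM in Glu positive against 2242 to 2900 CPM in Glu negative libraries. Sis, named after its values were seen, averaged 2926 and 715 CPM there. In NeuroD1 libraries the enterocyte sums overlapped (2300 to 3125 CPM in positive, 3021 to 9327 CPM in negative). Paneth sums overlapped in Glu libraries (147 to 496 CPM in positive, 378 to 1571 CPM in negative). The part of these cells in the fold changes was not tested. Nerve cells also use these processing genes. Of 6 enteric neuron and glia markers, 2 were tested and 0 passed in either strain in edgeR or DESeq2, with 0 in the NeuroD1 and 2 in the Glu comparison at an unadjusted p under 0.05. The glial factor Sox10 was at 0 in all 11 libraries. The 6 summed to 9.92 to 13.0 CPM in NeuroD1 positive, 6.03 to 13.6 CPM in NeuroD1 negative, 6.89 to 12.1 CPM in Glu positive and 0.663 to 1.26 CPM in Glu negative libraries.

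To see which genes ran alongside each of the 7, the root mean square difference of log2 CPM centred on each gene's mean was taken over the 11 libraries among 6734 genes of sufficient level. It is a description of 11 libraries that share a sorting scheme and 2 strains. Cplx2, a complexin that clamps vesicle fusion, and Gnao1, a G protein alpha subunit, were among the 3 nearest genes outside the set for Pcsk1 (0.32 and 0.36), Cpe (0.31 and 0.28) and Ptprn2 (0.15 and 0.23). Pcsk1 also had Gng4 (0.34), and Cpe and Ptprn2 had Disp2 (0.30 and 0.25). The nearest gene of all to Cpe was Ptprn2 (0.27), which lay 0.36 from Pcsk1. Pam was nearest to Ppl (0.21), Isl1 (0.30) and Pde1c (0.34), and Qpct to Oxr1 (0.44), Btbd3 (0.51) and Arc (0.53). Ptprn ran with Mapk8ip2 (0.46), Syt5 (0.52) and Snap25 (0.54), which share its lower level in Glu negative libraries.

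For Pcsk2 the nearest genes were others altogether: the membrane mucin Muc1 at 0.74, the aspartic protease cathepsin E (Ctse) at 1.05 and the secreted chaperone clusterin (Clu) at 1.08. Muc1 averaged 45.6 CPM in NeuroD1 positive, 53.3 CPM in NeuroD1 negative, 1.28 CPM in Glu positive and 1.69 CPM in Glu negative libraries. Ctse averaged 182, 226, 9.86 and 35.8 CPM in the same groups, and Clu 73.7, 90.4, 1.18 and 0.391 CPM. Each of them, like Pcsk2, was high in both NeuroD1 populations and low in both Glu populations. The distance of Pcsk2 to the other 6 genes was 2.18 to 3.10, with Ptprn the closest. With a prior count of 0.5 in place of 2 the 3 nearest genes were kept for all but Pam (2 of 3) and Qpct (1 of 3).

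**Figure D4:**
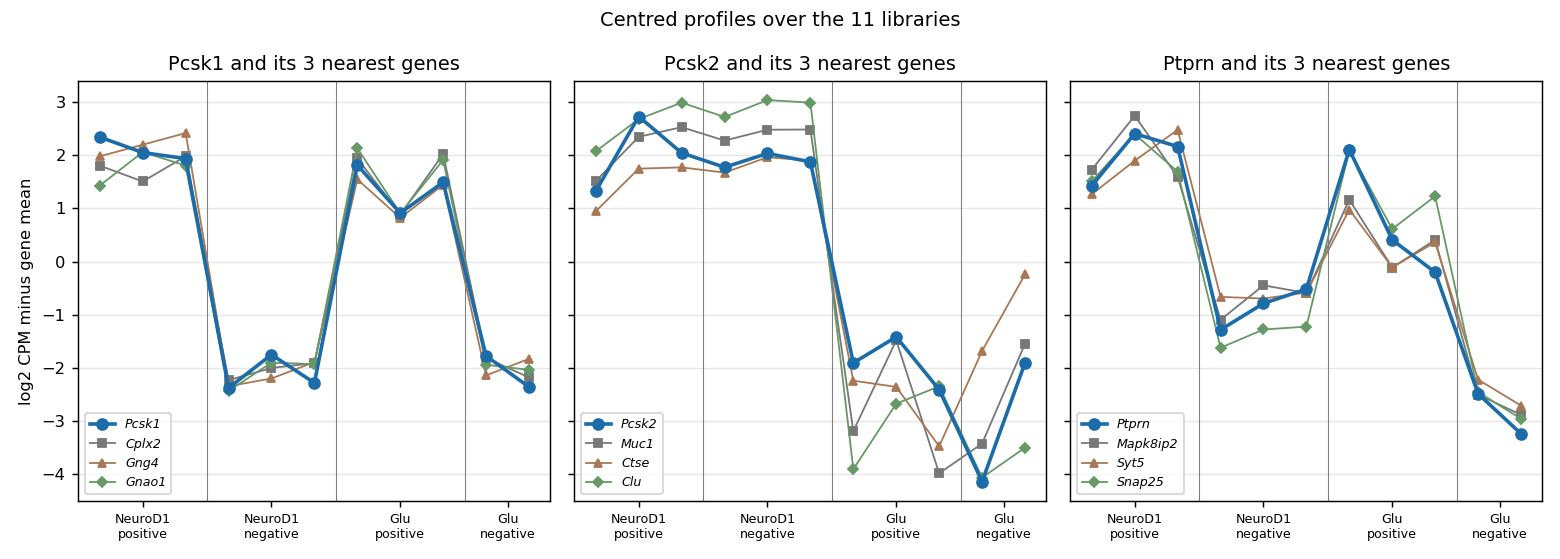
Log2 CPM minus the gene's mean over the 11 libraries for Pcsk1, Pcsk2 and Ptprn with the 3 genes nearest to each; lines only join libraries and vertical lines part the groups. Pcsk1 follows the reporter gate in both strains, Pcsk2 follows the strain, and Ptprn shows both, with Glu_positive_5254 high.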

How the data were processed

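RNA from sorted duodenal cells (2 ng) was amplified and made into libraries with Ovation kits, per the labels' protocols. Among their processing notes the submitters list the build GRCm38 and, as tools, Cufflinks 2.2.1, TopHat2 2.1.0 and CASAVA. No source used here gives the counting tool, its strand setting or its annotation. The authors deposited estimated counts, 1 table for 38283 genes and 11 libraries. In it, 848 genes held values that were not whole; all were rounded, and the 7 genes' own counts were whole. Symbols (36341 genes) and exon lengths came from GENCODE vM21 on GRCm38, promoters from RefSeq.

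Rounded counts went into edgeR 4.0.16 (R 4.3.3) with filterByExpr and TMM scaling. A mean was fitted for each of the 4 groups from all 11 libraries, contrasts were tested by quasi-likelihood, and p-values were adjusted by Benjamini-Hochberg over 14332 genes with a threshold of 0.05. The SE is the fold change over the root of the test's F. Ratios of 2 genes were tested by exact two-sided permutation over libraries. DESeq2 1.42.0, other scalings and filters, the replicate block and leaving out each library were alternatives. The fit was also run on simulated counts with rises planted in the positive groups. No falls and no absence of mt-Rnr1 and mt-Rnr2 were planted, so that run does not cover them.

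The 7 genes, the lists and the comparisons were chosen with earlier results of these data known. All 7 genes are named; of other lists, genes are named by their size of change in the NeuroD1 comparison or their level, and exceptions are marked. The labels do not say whether libraries come from separate animals, so p-values measure only the spread between these libraries. Limits from counts of 0 cover counting error only.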

Additional observations from a re-analysis of the deposited data

How the results depend on the processing

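For the 6 genes that rose, every alternative kept the direction in both strains, and calls were lost for Qpct and Ptprn in the Glu comparison and gained for Ptprn between strains, as given with those genes. Over 678 values of the 7 genes in 5 comparisons, 14 lost a call and 3 gained one. Of them 32 changed sign, 0 of which had passed: 5 between the positive groups, 8 between the negative groups, 17 in the interaction and 2 for Pcsk2 in the NeuroD1 comparison (a log2 fold change of -0.066 with library totals, and of -0.16 to 0.54 with a library left out). Among 393 values of the other genes named with a fold change 78 lost a call and 0 changed sign. Pcsk2 could not be tested in the Glu comparison with the compared groups alone. Depth limits Pcsk2 in Glu libraries and Qpct in negative libraries. The causes were not tested.

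With the library number as a replicate block, 6 of the 7 genes passed in the NeuroD1 and 5 in the Glu comparison, without Qpct (adjusted p = 0.076), and 0 in the interaction; calls over all genes were 1956, 707 and 21, against 2031, 951 and 16 without it. The Qpct to Pam difference in the Glu strain was then -0.22 instead of 0.01, and no other call of the 7 genes changed; Pcsk6, Cpd and Cpn1 (Glu) and Ica1 (NeuroD1) also lost theirs. The labels do not say what a shared number means, and same-numbered libraries' deviations from the group means correlated by 0.010 to 0.047, so they were not paired.

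The members called between the negative groups were 2 with no filter (1 as reported) and 0 to 2 with a library left out, and between the positive groups 1 to 2. Genes called in all came to 1551 (no filter), 1542 (DESeq2) and 340 (compared groups alone) for the Glu comparison, to 1902, 1830 and 565 between the positive groups (1165 as reported), to 245, 170 and 123 between the negative groups (70 as reported), and for the interaction to 338 with no filter, 175 in DESeq2 and 25 with library totals. With a library left out they ranged from 1301 to 2757 (NeuroD1), 187 to 1126 (Glu), 569 to 2182 (positive groups), 27 to 133 (negative groups) and 5 to 52 (interaction). Ratio differences in the Glu strain then ranged from -3.79 to 0.91 (Pcsk2 to Pcsk1), -0.97 to 0.41 (Ptprn2 to Ptprn), -0.72 to 3.71 (Scg5 to Pcsk2) and -0.39 to 0.42 (Qpct to Pam), and for Qpct to Pam in the NeuroD1 strain from -0.19 to 0.63.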

Other observations

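Gast, which encodes the precursor of gastrin and was picked out after its values were seen, had the pattern of Pcsk2 at a far higher level. It stood at 694, 1233 and 1255 CPM in NeuroD1 positive and 1061, 1306 and 1323 CPM in NeuroD1 negative libraries, against 4.55, 0.689 and 0.285 CPM in Glu positive and 0 and 0.140 CPM in Glu negative libraries. It was higher in NeuroD1 than in Glu cells among positive (log2 fold change 9.31 ± 0.69, edgeR adjusted p = 7.6e-08) and among negative libraries (13.38 ± 1.05, adjusted p = 3.3e-07), and both calls held under all 19 alternatives. The fitted value among negative libraries rests on 1 count in the Glu group.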
